A study of Mus musculus with 6 samples.

Results

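The genes described here are 7 acute-phase genes that adipose cells are known to express, namely Lcn2, Saa3, Hp, Cp, Orm1, Steap4 and Serpina3n. They were chosen by name, as rows of a table of estimated RNA-seq counts that held 43760 rows, and each of the 7 was found once and was among the 12354 genes that passed the filter on low counts. The cells were 3T3-L1, a clonal line of mouse fibroblasts that hormones can drive to become lipid-filled adipocytes, and their genotype is given as WT. The day 7 group held 3 libraries from cells taken at day 7 that had been given insulin, IBMX, rosiglitazone (spelled roziglitazone in the labels) and dexamethasone, and the day 0 group held 3 libraries from cells taken undifferentiated. Nothing in the labels tells whether separate cultures were used, so the p-values below measure the spread between these libraries, which may be technical. Nor do the labels give how long each agent stayed in the medium.

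Acute-phase proteins are secreted in quantity when inflammatory cytokines reach a cell. IL-6 acts through its receptors and the transcription factor STAT3, IL-1 and TNF act through NF-kB, and C/EBP factors and glucocorticoids, of which dexamethasone is one, raise the response further. The liver is the main source of these proteins, and fat tissue makes several of them too, where Saa3, Lcn2 and haptoglobin are known as products of the fat cell. Lcn2, Hp, Cp and Steap4 handle iron, haem-bearing protein or copper, Saa3 and Orm1 encode carriers of lipids and other small molecules, and Serpina3n encodes a protease inhibitor.

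Orm1 rose 32.2-fold and Hp 26.3-fold at day 7, while Lcn2 fell 9.16-fold and Saa3 20.6-fold, and Cp, Steap4 and Serpina3n did not pass the test. The calls of Lcn2 and Saa3 were each lost when any 1 library other than the third day 7 library was left out, whereas without that library the log2 fold changes were -6.13 for Lcn2 and -10.16 for Saa3 and both passed. Of the 7 genes thus 2 were called higher and 2 lower, where 30.8% of all tested genes were called higher and 29.2% lower in the same fit, so these counts are near the background. Libraries scaled by total counts alone gave 2355 genes higher and 4025 lower, in place of 3802 and 3611. Apart from Orm1, each gene lay far apart in the 3 day 7 libraries and close together in the 3 day 0 libraries, and all 7 were highest in the same day 7 library, as were 37.0% of tested genes.

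For 5 of the 7 genes, a window of 250 bases before to 50 after the start of transcription was found in RefSeq (build GRCm38.p6). Hp and Orm1 are named only. The windows were searched on both strands for the C/EBP motif TTGCNNAA, the STAT motif TTCNNNGAA, the NF-kB motif and the PPAR/RXR direct repeat. They were also searched for AGAACA, which is only a part of the glucocorticoid receptor site. The 250 bases before the start are shown for the genes that fell and for Steap4, whose window held the most matches, written 5′ to 3′ on the strand of the gene with the matched letters in capitals. They lie at chr2:32387740-32387989 (minus strand) for Lcn2, chr7:46715677-46715926 (minus strand) for Saa3 and chr5:7960222-7960471 (plus strand) for Steap4.
Lcn2: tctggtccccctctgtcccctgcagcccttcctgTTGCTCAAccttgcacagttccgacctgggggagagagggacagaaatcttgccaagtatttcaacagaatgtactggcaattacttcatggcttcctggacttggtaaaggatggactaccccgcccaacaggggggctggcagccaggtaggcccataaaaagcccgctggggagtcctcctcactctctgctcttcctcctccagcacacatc
Saa3: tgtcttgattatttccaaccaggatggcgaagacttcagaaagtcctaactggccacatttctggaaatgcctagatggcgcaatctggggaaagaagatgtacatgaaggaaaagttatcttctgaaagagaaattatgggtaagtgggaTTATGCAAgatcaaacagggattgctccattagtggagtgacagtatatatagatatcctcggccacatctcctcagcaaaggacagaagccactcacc
Steap4: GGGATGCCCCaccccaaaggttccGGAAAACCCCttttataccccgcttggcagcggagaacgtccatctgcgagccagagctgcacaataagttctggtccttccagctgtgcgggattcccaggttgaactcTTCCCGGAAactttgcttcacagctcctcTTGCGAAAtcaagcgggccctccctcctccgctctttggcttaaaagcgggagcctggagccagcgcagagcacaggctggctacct
The capitals in Lcn2 mark a C/EBP match, TTGCTCAA, 216 to 209 bases before the RefSeq start, which lies inside the GENCODE M21 gene. Those in Saa3 mark a C/EBP match read on the opposite strand, 99 to 92 bases before the start. In Steap4 they mark, in order, a pair of NF-kB matches on the opposite strand, the STAT match TTCCCGGAA at 116 to 108 bases and the C/EBP match TTGCGAAA at 87 to 80 bases before the start, and no 2 of these overlap. Cp has a pair of starts in RefSeq, of which the second had a C/EBP match on the opposite strand 70 to 63 bases before it and the first an AGAACA 110 to 105 bases before it. Serpina3n had an AGAACA 183 to 178 bases before its start. Of 32851 RefSeq windows of this length, 10.8% held the C/EBP motif, 8.30% the STAT motif, 4.51% the NF-kB motif, 19.0% AGAACA and 0.0396% the PPAR/RXR repeat, which none of the 5 genes had. A match is a run of letters, and nothing was measured here about binding.

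Depth ran from 7655822 counts in the third day 7 library to 16987076 in the first day 7 library. The 10 rows that were most abundant on average over all libraries held 44.0% to 59.2% of a library's counts. The highest share was that of the second day 7 library, whose TMM scaling factor was 0.778, against 0.963 to 1.14 in the others. What these differences add to the results was not tested. Since each day 7 column is headed replicate 1, these libraries are named by their place in the table, from the first day 7 column to the third, and day 7 values are given in that order. In a multidimensional scaling plot over all tested genes, dimension 1 separated the days and dimension 2, with 10.7% of the variance, set the third column at 1.81, against -0.62 for the first and -0.99 for the second. Where a named gene's fold change moved by over 1.5 times or its call changed without the third column, both values are given. The labels call the cells of both days fibroblasts. Of the mature adipocyte markers all 9 that were tested were higher at day 7, where 30.8% of all tested genes were. The summed level of the list was 4306 to 7090 CPM at day 7 and 25.7 to 28.4 CPM at day 0. Adipoq averaged 1235 ± 416 CPM at day 7 and 0.0414 ± 0.0718 CPM at day 0, Plin1 352 ± 17.7 and 0.0292 ± 0.0506 CPM, and Cidec 735 ± 346 CPM at day 7 with 0 counts at day 0. Of the fibroblast and preadipocyte markers all 7 that were tested were lower, where 29.2% of all tested genes were. The sums of that list were 1459 to 2071 CPM at day 7 and 5895 to 6676 CPM at day 0. Pdgfra averaged 117 ± 35.8 CPM at day 7 and 809 ± 34.1 CPM at day 0, and Pdgfrb 41.7 ± 4.73 and 173 ± 8.62 CPM. Levels are CPM, scaled by TMM, and in bulk RNA fewer cells of a type and less RNA per cell cannot be told apart.

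Lcn2 encodes lipocalin 2, a secreted protein that binds the siderophores with which bacteria take up iron. It had 11.2, 3.87 and 170 CPM in the 3 day 7 columns, against 547, 498 and 631 CPM in the 3 day 0 libraries. Every day 7 library was below every day 0 library, and the third column held over 10 times more than the other two. The mean was 61.8 ± 94.0 CPM at day 7 and 559 ± 67.4 CPM at day 0 (SD, n = 3 each), a log2 fold change of -3.20 ± 1.18 (SE), or 9.16-fold lower, which passed edgeR's quasi-likelihood test at an adjusted p of 0.0464. The call was lost when any library other than the third column was left out, and without the third column the log2 fold change was -6.13 (edgeR adjusted p = 1.59e-05). The gene lies on chromosome 2 from 32384633 to 32388252 on the minus strand (GRCm38), by GENCODE M21. The whole Lcn2 window shown above falls within these bounds, since its start is that of RefSeq.

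Cp encodes ceruloplasmin, the copper-carrying ferroxidase of plasma. It had 52.3, 14.8 and 179 CPM in the 3 day 7 columns, against 258, 268 and 283 CPM at day 0. The groups did not overlap. The means were 81.9 ± 85.9 CPM at day 7 and 269 ± 13.0 CPM at day 0, and the log2 fold change of -1.73 ± 0.72 missed the threshold in edgeR (adjusted p = 0.0705). It passed without the third column, at -2.97 (edgeR adjusted p = 0.000977). Cp spans chromosome 3 from 19957054 to 20009145 on the plus strand and overlaps Hps3 on the other strand, which averaged 14.8 CPM at day 7 and 7.04 CPM at day 0. Whether counting used strand is not given in the sources used here, so reads of the pair may be mixed.

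Steap4 encodes a metalloreductase that reduces iron and copper for uptake and is known as a TNF-responsive gene of adipocytes. Its levels were 18.5, 1.83 and 55.1 CPM in the 3 day 7 columns, against 28.1, 27.0 and 42.5 CPM in the 3 day 0 libraries. The third column lay above all day 0 libraries and the other two below them, so the groups overlapped. The means were 25.1 ± 27.3 CPM at day 7 and 32.5 ± 8.69 CPM at day 0, with a log2 fold change of -0.40 ± 0.82 (edgeR adjusted p = 0.690). Its sign depended on 1 library, being -1.57 without the third column (edgeR adjusted p = 0.0666) and 0.14 without the second (edgeR adjusted p = 0.806). Steap4 lies on chromosome 5 from 7960457 to 7982213 on the plus strand.

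Hp encodes haptoglobin, which binds free haemoglobin. It was listed at 235, 81.9 and 931 CPM in the 3 day 7 columns, against 15.8, 14.1 and 17.5 CPM at day 0. All day 7 libraries were above all day 0 libraries, although they differed more than 11-fold among themselves. The means of 416 ± 452 CPM at day 7 and 15.8 ± 1.71 CPM at day 0 gave a log2 fold change of 4.72 ± 0.85, or 26.3-fold higher (edgeR adjusted p = 0.00199). Leaving out any 1 library kept the call, and the log2 fold change was 3.34 without the third column. Hp lies on chromosome 8 from 109575128 to 109579172 on the minus strand.

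Saa3 encodes serum amyloid A 3, a lipid-binding protein of the acute phase that in the mouse is made mainly outside the liver. The 3 day 7 columns had 0.623, 0 and 69.5 CPM, from 11, 0 and 512 counts, against 434, 373 and 581 CPM in the day 0 libraries. Nearly all of its day 7 reads thus came from the third column. The means were 23.4 ± 40.0 CPM at day 7 and 463 ± 107 CPM at day 0, with a log2 fold change of -4.37 ± 1.58, or 20.6-fold lower (edgeR adjusted p = 0.0436). As for Lcn2, leaving out any library other than the third column lost the call, and without that column the log2 fold change was -10.16 (edgeR adjusted p = 4.05e-06). Of its 31-base transcript words, 7.52% also occur in other genes, with Malat1 first among them. Saa3 lies on chromosome 7 from 46711998 to 46715700 on the minus strand.

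Orm1 encodes alpha-1-acid glycoprotein, a plasma carrier of lipids and drugs. Its levels were 37.4, 21.9 and 43.7 CPM in the 3 day 7 columns, against 1.05, 0.621 and 1.58 CPM at day 0. The groups lay far apart, and Orm1 was the member whose day 7 libraries differed least. The means were 34.3 ± 11.2 CPM at day 7 and 1.09 ± 0.483 CPM at day 0, a log2 fold change of 5.01 ± 0.38 or 32.2-fold higher (edgeR adjusted p = 3.11e-05), and 4.82 without the third column. Its counts were fractional in 5 of 6 libraries, and 27.5% of its 31-base words also occur in Orm2, Orm3 or Gm11212, so reads may be shared among these copies. Orm1 lies on chromosome 4 from 63344560 to 63348163 on the plus strand.

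Serpina3n encodes a serine protease inhibitor, a mouse relative of human alpha-1-antichymotrypsin. It had 9.58, 1.53 and 58.0 CPM in the 3 day 7 columns, against 7.89, 10.5 and 8.34 CPM at day 0. The second column lay below all day 0 libraries, the first among them and the third above them. The means were 23.0 ± 30.5 CPM at day 7 and 8.91 ± 1.39 CPM at day 0, and the log2 fold change was 1.32 ± 0.96 (edgeR adjusted p = 0.268). It was -0.59 without the third column (edgeR adjusted p = 0.375) and 1.87 without the second, which passed the test (edgeR adjusted p = 0.0487). Counts were fractional in 2 libraries, and 21.6% of its 31-base words are shared with other Serpina3 genes. Serpina3n lies on chromosome 12 from 104406729 to 104414329 on the plus strand.

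**Figure D1:**
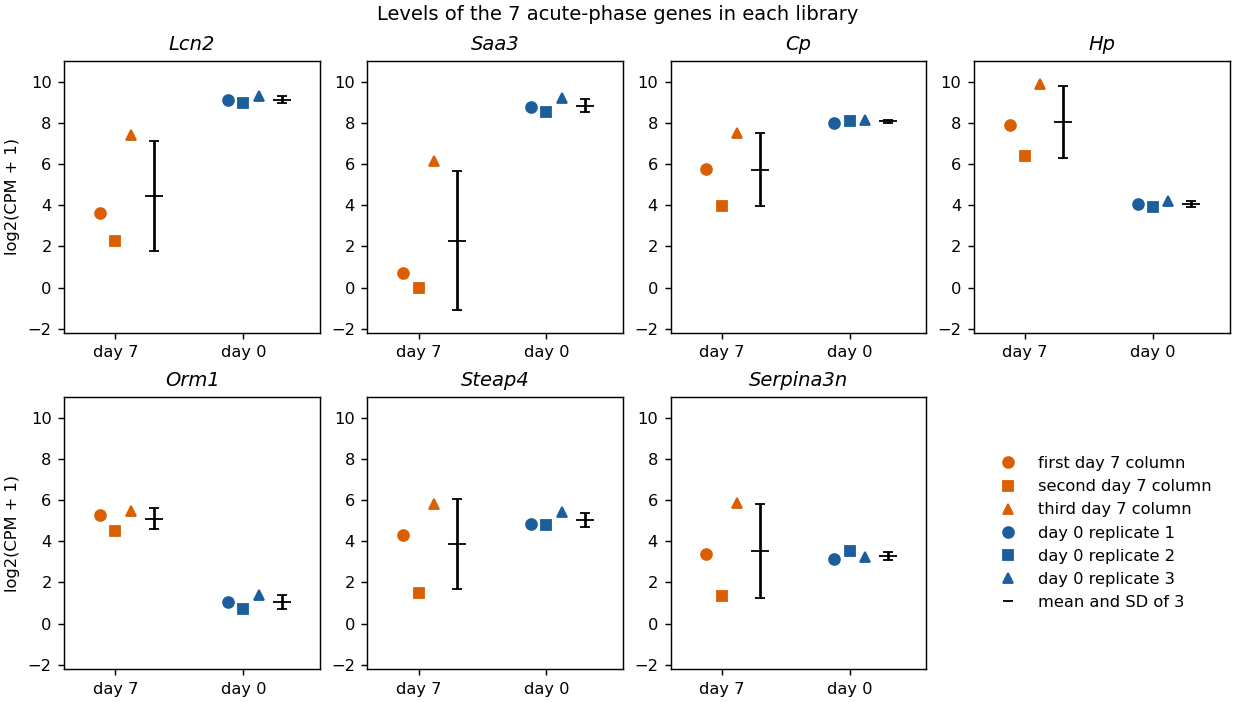
Level of each gene in each library, as log2(CPM + 1), with day 7 in orange and day 0 in blue and black bars for the mean and SD of 3 libraries. The third day 7 column, an orange triangle, is the highest day 7 point in all 7 panels, and the day 0 points lie close together.

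Without the third column 2 of the 7 genes were called higher and 3 lower, where 32.9% of all tested genes were higher and 31.8% lower. Total-count scaling gave the same counts, where 19.1% of all tested genes were higher and 32.6% lower. The groups did not overlap for 5 of the 7 genes, against 68.3% of all tested genes. The median log2 fold change was -0.40 over the 7 genes and 0.022 over all tested genes. An exact permutation test of any single gene cannot go below p = 0.1 with 3 libraries against 3.

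**Figure D2:**
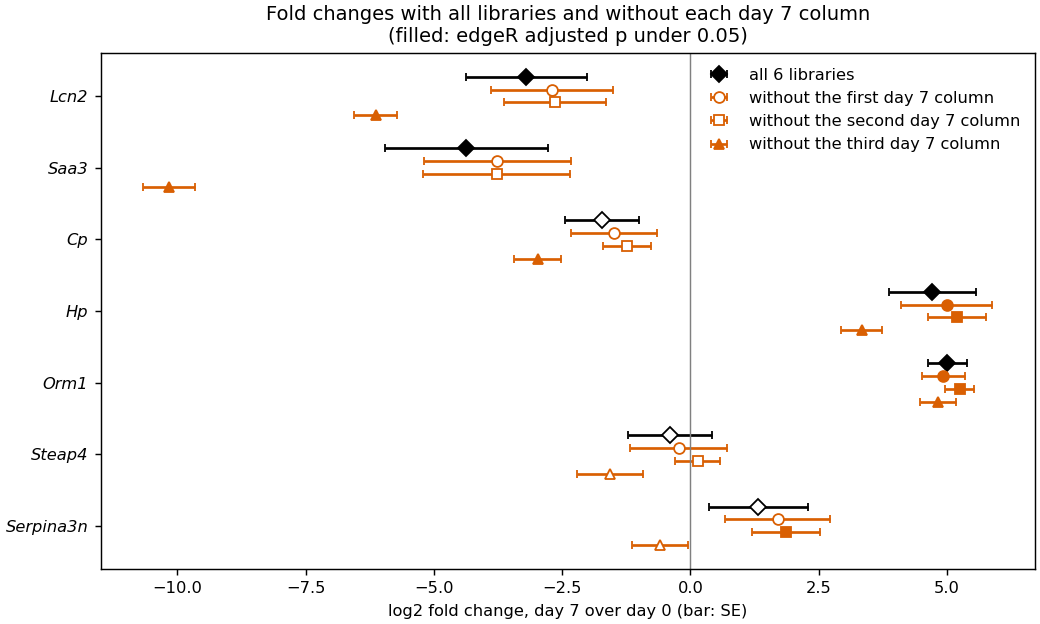
Log2 fold change of day 7 over day 0 with its SE, from all 6 libraries (black) and with each day 7 column left out (orange), where filled symbols passed an edgeR adjusted p of 0.05. Without the third column Lcn2, Saa3 and Cp lie further below 0 and Serpina3n changes sign, while Orm1 stays near 5.

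Levels were also divided by exon length, taken over all annotated exons of a gene together. That length was 2623 bases for Lcn2 and 9566 for Cp, whose transcripts held only 1205 and 6395 words of 31 bases. The orders and ranks below thus depend on the length used and compare genes only roughly. Per kilobase of exon, the order at day 7 was Hp with a level of 259 CPM per kb, Orm1 with 44.3, Lcn2 with 23.6, Serpina3n with 11.2, Saa3 with 8.97, Cp with 8.56 and Steap4 with 7.97. At day 7 each gene but Orm1 had an SD larger than its mean. The SDs were 282 CPM per kb for Hp, 35.8 for Lcn2, 15.3 for Saa3, 14.8 for Serpina3n, 8.98 for Cp and 8.64 for Steap4. No neighbours in the day 7 order differed beyond their spread. The order at day 0 was Lcn2 with a level of 213 CPM per kb, Saa3 with 178, Cp with 28.2, Steap4 with 10.3, Hp with 9.84, Serpina3n with 4.32 and Orm1 with 1.40. On these lengths Lcn2 and Saa3 at day 0 (SD 25.7 and 41.1 CPM per kb) did not differ beyond their spread, nor did Steap4 and Hp (SD 2.75 and 1.06), whereas the other neighbours did. Among 11725 genes ranked per kilobase, Lcn2 ranked 1003 and Saa3 2806 at day 7, against 97 and 115 at day 0. Hp ranked 76 at day 7, against 2469 at day 0, and Orm1 ranked 511 at day 7, against 8722 at day 0.

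Relative to the mean, each gene but Orm1 was spread more widely among the day 7 libraries than among the day 0 libraries. On the log2(CPM + 1) scale the SD of the 7 genes over the 3 libraries was 0.51 (Orm1) to 3.36 at day 7, where the median over all tested genes was 0.224. At day 0 it was 0.069 to 0.354, where the median was 0.103. On this scale the added 1 narrows differences among levels near 1 CPM, as those of Orm1 at day 0 were. The day 7 SD of Orm1 exceeded that of 88.9% of tested genes, and the lowest of the others, that of Hp, exceeded 99.6%. All 7 genes were highest in the third column, next in the first and lowest in the second, an order that 17.9% of tested genes had. This order was noticed after the values were seen and is given as a description. The ratio of the third column to the first was 15.2 for Lcn2, 112 for Saa3, 3.96 for Hp, 3.42 for Cp, 1.17 for Orm1, 2.98 for Steap4 and 6.05 for Serpina3n. In the third column 4 genes exceeded every day 0 library, namely Hp, Orm1, Steap4 and Serpina3n, and in the first and in the second column 2 genes did, Hp and Orm1.

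**Figure D3:**
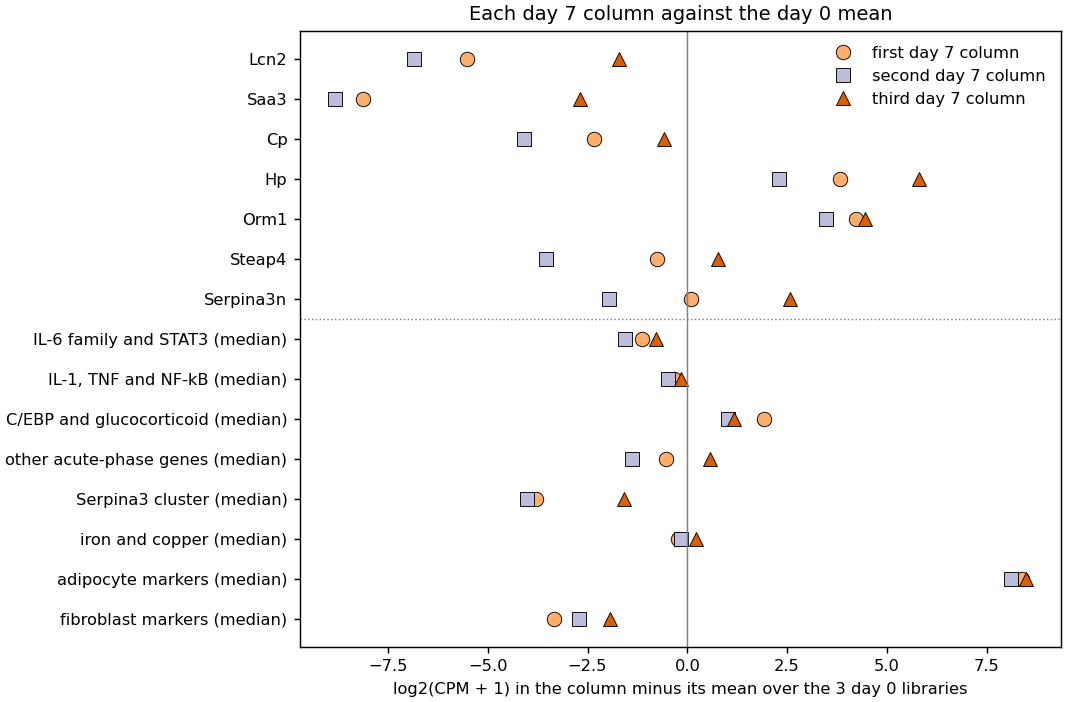
Each day 7 column's log2(CPM + 1) minus its mean over the 3 day 0 libraries, for the 7 genes and, below the dotted line, as the median of each gene list. The third column (triangle) is rightmost for all 7 genes, and for the C/EBP and glucocorticoid list the first column (circle) is rightmost.

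Markers of other cells were read in the same libraries. None of the macrophage, neutrophil, hepatocyte or endothelial marker genes passed the filter. The macrophage list, with 9 of 10 markers matched (all but Adgre1) and 3 at 0 in all libraries, summed to 1.87, 1.42 and 0.95 CPM in the 3 day 7 columns, against 0.311 to 1.32 CPM at day 0, with Ptprc at 0 at day 7. Most of the day 7 sums came from Cd68, with 1.70, 1.22 and 0.815 CPM, against 0.0621 to 0.526 CPM at day 0. Csf1r went the other way, with 0.170, 0 and 0.136 CPM at day 7, against 0.249 to 0.667 CPM at day 0. The neutrophil list of 10 markers, 4 of them at 0 in all libraries including S100a9 and Ngp, summed to 0.510, 0.305 and 2.44 CPM at day 7, against 0.417 to 0.994 CPM at day 0. Most of the third column's sum came from Camp and S100a8. Camp had 0, 0 and 9 counts in the day 7 columns, against 3 to 10 at day 0. S100a8 had 2, 1 and 7 counts, against 2 to 3 at day 0. The sums of hepatocyte markers were 0.102 to 0.850 CPM at day 7 and 0.167 to 0.351 CPM at day 0, and those of endothelial markers 1.08 to 1.77 CPM at day 7 and 0.789 to 1.55 CPM at day 0. Some markers of undifferentiated cells were, like the 7 genes, highest at day 7 in the third column. Dlk1, the preadipocyte factor, had 50.9, 133 and 254 CPM in the 3 day 7 columns, against 1697, 1687 and 1616 CPM at day 0, and without the third column its log2 fold change was -4.19 (edgeR adjusted p = 9.90e-05), where all libraries gave -3.52 (edgeR adjusted p = 0.000820). The marker list was highest in the third column for 5 of its 7 tested genes, although its sum was 1550 CPM there, against 1459 and 2071 CPM in the first and the second. Of the 9 adipocyte markers 4 were highest in the third column. The part of these differences in the results was not tested.

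Of the IL-6 family and STAT3 list, 13 of 20 tested genes were lower at day 7, none was higher and 7 did not pass, with a median log2 fold change of -1.14, where over all tested genes 29.2% were lower, 30.8% higher and the median was 0.022. Leaving out the third column, 14 of the list were lower, where 31.8% of all tested genes were, and the list's median was -1.66. In edgeR 0 were higher also at an unadjusted p under 0.05, as in DESeq2 and limma-voom with adjustment. Members passed as higher in some other fits, 2 without the second day 7 column and 1 each without the first, without day 0 replicate 2 and with no filter. Over all tested genes the fit with no filter called 3933 of 20807 higher, and the others 3126 to 3672 of 12491 to 12556. Il6 itself was listed at 0.0567, 0 and 0.679 CPM in the 3 day 7 columns, against 2.72, 3.54 and 5.67 CPM at day 0, a log2 fold change of -4.39 ± 0.77 (edgeR adjusted p = 0.00172) that was -6.45 without the third column and -3.70 without the first. Osmr, the receptor subunit for oncostatin M, averaged 47.1 ± 34.9 CPM at day 7 and 235 ± 8.83 CPM at day 0, a log2 fold change of -2.33 ± 0.45 (edgeR adjusted p = 0.00283), and of -3.11 without the third column. Socs1, a feedback inhibitor of cytokine receptors, averaged 1.12 ± 0.334 CPM at day 7 and 12.2 ± 0.261 CPM at day 0, 11.3-fold lower (edgeR adjusted p = 1.32e-05). On the log2(CPM + 1) scale the list's median difference from the day 0 mean was -1.13, -1.55 and -0.78 in the first, the second and the third column, so it lay below day 0 in each, and 13 of the 20 genes were highest in the third.

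Of 31 tested genes of the IL-1, TNF and NF-kB list 13 were lower, 5 higher and 13 did not pass, where 29.2% of all tested genes were lower and 30.8% higher. The list's median log2 fold change was -0.11. When the third column was left out 16 were lower and 4 higher, where 31.8% of all tested genes were lower and 32.9% higher, and the list's median was -0.62. Il1a, which encodes a cytokine, had 0 counts at day 7 and 58 at day 0, and was at least 17.1-fold lower on a floor of 3 counts over the group. Nfkbie, an NF-kB inhibitor that NF-kB itself induces, averaged 1.0 ± 0.556 CPM at day 7 and 23.2 ± 3.90 CPM at day 0, 25.5-fold lower (edgeR adjusted p = 2.04e-05). Tlr2, a receptor for bacterial lipoproteins, had 1.25, 3.46 and 15.9 CPM in the 3 day 7 columns, against 63.9, 63.8 and 67.5 CPM at day 0, 10.6-fold lower (edgeR adjusted p = 0.00405). Its log2 fold change of -3.41 became -4.93 without the third column and -2.81 without the first. The 5 genes that were higher encode intracellular kinases or adaptors and a receptor. Irak2 averaged 31 ± 3.83 CPM at day 7 and 10.9 ± 0.236 CPM at day 0, 2.85-fold higher (edgeR adjusted p = 5.13e-05). Il17rc was 1.93-fold, Traf6 1.83-fold and Chuk 1.77-fold higher, and Irak4 was 1.46-fold higher at an edgeR adjusted p of 0.0359 that was lost when any library but the first day 7 column was left out. Il1b and Tnf were listed at 0 in all 6 libraries.

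Most genes of the C/EBP and glucocorticoid list rose. Of 17 tested genes 12 were higher, 3 lower and 2 did not pass, with a median log2 fold change of 1.38, where 30.8% of all tested genes were higher and 29.2% lower. Without the third column the counts were again 12 and 3, where 32.9% of all tested genes were higher and 31.8% lower. Zbtb16, a glucocorticoid-induced transcription factor, averaged 50.6 ± 22.1 CPM at day 7 and 0.164 ± 0.101 CPM at day 0, a log2 fold change of 8.29 ± 0.55 (edgeR adjusted p = 1.74e-05). Hsd11b1, the enzyme that regenerates active glucocorticoid, averaged 63.1 ± 3.57 CPM at day 7 and 2.77 ± 0.566 CPM at day 0, 22.8-fold higher (edgeR adjusted p = 3.10e-06). Cebpa averaged 173 ± 50.4 CPM at day 7 and 14.0 ± 2.34 CPM at day 0, 12.3-fold higher (edgeR adjusted p = 1.82e-05). Cebpd, an early factor of fat cell differentiation, was 2.78-fold lower, Sgk1, a kinase, 2.01-fold lower and Nr3c1, the glucocorticoid receptor, 1.37-fold lower. The call of Nr3c1 (edgeR adjusted p = 0.0266) was lost when any library but the third column was left out. The list was highest in the third column for 6 of 17 genes and in the same order of columns as the 7 acute-phase genes for 2, and the difference from the acute-phase genes was not tested.

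Other acute-phase genes were mostly near the floor. Of 32 listed, 30 matched a row, 13 were tested and 7 were listed at 0 in all libraries, among them Crp and Hamp. Of those tested 4 were higher, 3 lower and 6 did not pass, near the 30.8% higher and 29.2% lower of all tested genes, with a median log2 fold change of -0.60. The fit without the third column gave 7 lower, where 31.8% of all tested genes were. Itih4, an inhibitor heavy chain of plasma, averaged 18.8 ± 7.88 CPM at day 7 and 0.0999 ± 0.0902 CPM at day 0, a log2 fold change of 7.39 ± 0.61 (edgeR adjusted p = 4.41e-05). Lrg1 averaged 1.83 ± 1.26 CPM at day 7 and 0.121 ± 0.105 CPM at day 0, 14.5-fold higher on 77 counts at day 7 and 5 at day 0 (edgeR adjusted p = 0.00353). Of the 77 counts 58 came from the first column, and without that column Lrg1 did not pass the filter on low counts and was not tested. Those that fell were Ptx3, Serping1 and Il1rn. Ptx3, a pentraxin made outside the liver, averaged 5.74 ± 3.20 CPM at day 7 and 103 ± 16.1 CPM at day 0, 19.2-fold lower (edgeR adjusted p = 8.54e-05). Serping1, the C1 inhibitor, had 0.170, 0.102 and 3.12 CPM in the 3 day 7 columns, against 22.4, 21.9 and 33.4 CPM at day 0, with a log2 fold change of -4.89 ± 0.78 (edgeR adjusted p = 0.00110), -7.38 without the third column and -4.15 without the first. Il1rn, the IL-1 receptor antagonist, averaged 2.14 ± 1.86 CPM at day 7 and 15 ± 1.56 CPM at day 0, 6.48-fold lower (edgeR adjusted p = 0.00414), with a log2 fold change of -2.70 that was -3.71 without the first column.

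Close relatives of the 7 genes did not all follow them. Of the Serpina3 cluster, the neighbours of Serpina3n, 5 of 10 genes were tested, 4 were lower and Serpina3c did not pass, with a median log2 fold change of -3.59, where 29.2% of all tested genes were lower. All 5 were highest in the third column. Serpina3g had 0.850, 0.102 and 15.5 CPM in the 3 day 7 columns, against 101, 107 and 114 CPM at day 0, 23.1-fold lower (edgeR adjusted p = 0.00556), with a log2 fold change of -4.53 that was -7.52 without the third column and -3.89 without the first. Serpina3i was 13.0-fold, Serpina3h 12-fold and Serpina3f 9.86-fold lower, with log2 fold changes of -3.70, -3.59 and -3.30 that became -7.01, -5.58 and -4.90 without the third column. For Serpina3i and Serpina3h they were -2.95 each without the first. Their counts were fractional in 3 or 4 of 6 libraries. Serpina3c had 7.59, 1.83 and 29.2 CPM in the day 7 columns, against 4.82, 4.97 and 3.50 CPM at day 0 (edgeR adjusted p = 0.142), an order of columns that Serpina3n also showed. Its log2 fold change of 1.48 was 0.17 without the third column (edgeR adjusted p = 0.774) and 1.99 without the second, which passed the test (edgeR adjusted p = 0.0185).

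Of the Saa, Orm, Steap and lipocalin relatives 7 of 21 were tested, of which 2 were higher, 4 lower and Orm3 did not pass. Over all tested genes 30.8% were higher and 29.2% lower. Orm2, the copy of Orm1, averaged 2.74 ± 0.819 CPM at day 7 and 0.595 ± 0.214 CPM at day 0, 4.56-fold higher (edgeR adjusted p = 0.00179), on counts that were fractional in 5 of 6 libraries. The other listed genes of the Steap family fell. Steap1 averaged 1.55 ± 0.307 CPM at day 7 and 14.5 ± 3.93 CPM at day 0, 9.16-fold lower (edgeR adjusted p = 4.25e-05). Steap2 averaged 26.3 ± 10.5 CPM at day 7 and 156 ± 18.5 CPM at day 0, 5.96-fold lower (edgeR adjusted p = 0.000120). Steap3 averaged 39.1 ± 8.14 CPM at day 7 and 90.1 ± 2.74 CPM at day 0, 2.32-fold lower (edgeR adjusted p = 0.000328). Steap4 itself did not pass the test, and the difference between it and its relatives was not tested. Of the lipocalins, Apod, the carrier apolipoprotein D, had 43.6, 17.8 and 10.2 CPM in the day 7 columns, against 410, 393 and 358 CPM at day 0, 15.9-fold lower (edgeR adjusted p = 0.000288). Its log2 fold change of -3.99 was -4.78 without the first column, and unlike Lcn2 it was lowest in the third. C8g, the complement lipocalin, averaged 1.9 ± 0.237 CPM at day 7 and 0.505 ± 0.211 CPM at day 0, 3.60-fold higher (edgeR adjusted p = 0.00342). Saa1, Saa2 and Saa4, relatives of Saa3, were under 1 CPM in all libraries and were not tested.

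**Figure D4:**
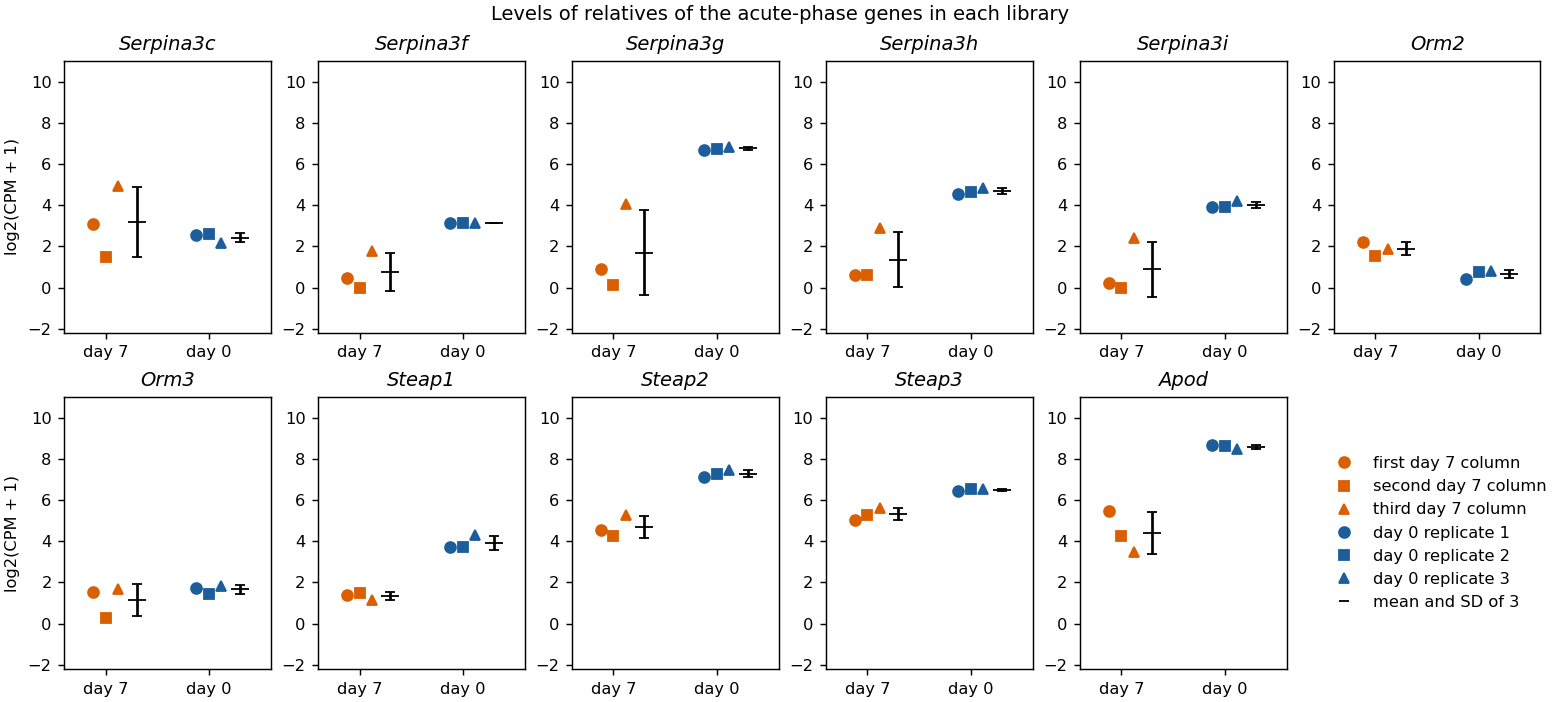
Level of 11 relatives of the acute-phase genes in each library, as log2(CPM + 1), with day 7 in orange, day 0 in blue and black bars for the mean and SD of 3 libraries. Genes of the Serpina3 cluster are highest at day 7 in the third column (triangle), whereas Apod is lowest there.

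Of the receptors, ligands and targets of the acute-phase proteins 3 of 10 tested genes were higher, 3 lower and 4 did not pass, near the 30.8% higher and 29.2% lower of all tested genes, with a median log2 fold change of -0.32. The same fit without the third column gave 6 lower, where 31.8% of all tested genes were. Cd163, the haptoglobin receptor of macrophages, was listed at 0 in all libraries, and Slc22a17, a lipocalin 2 receptor, had 1.09 to 1.22 CPM at day 7 and 1.67 to 2.19 CPM at day 0 and did not pass (edgeR adjusted p = 0.0609). Mmp9, the protease that lipocalin 2 binds, averaged 3.30 ± 4.32 CPM at day 7 and 75.9 ± 7.29 CPM at day 0, 27.8-fold lower (edgeR adjusted p = 0.000893), with a log2 fold change of -4.80 that was -6.67 without the third column and -4.11 without the first. P2rx7, a nucleotide-gated channel, was 11.2-fold lower on 6 counts at day 7 and 82 at day 0, with a log2 fold change of -3.48 that was -2.81 without the first column. Scarb1, a lipoprotein receptor that also takes up serum amyloid A, averaged 147 ± 17.1 CPM at day 7 and 17.1 ± 0.823 CPM at day 0, 8.56-fold higher (edgeR adjusted p = 3.42e-06). Ager, a multiligand receptor, was 4.61-fold higher, on 125 counts at day 7 and 29 at day 0, with a log2 fold change of 2.20 that was 2.86 without day 0 replicate 1. Hmox1, the haem-degrading enzyme, averaged 273 ± 87.2 CPM at day 7 and 74.2 ± 1.94 CPM at day 0, 3.68-fold higher (edgeR adjusted p = 0.000277).

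Of the iron and copper genes 6 of 19 tested were higher, 4 lower and 9 did not pass, where 30.8% of all tested genes were higher and 29.2% lower, with a median log2 fold change of -0.030 that was -0.33 without the third column. Aco1, an iron-sensing aconitase, averaged 181 ± 5.37 CPM at day 7 and 23.9 ± 2.59 CPM at day 0, 7.59-fold higher (edgeR adjusted p = 3.42e-06). Ncoa4, the receptor for ferritin breakdown, was 3.21-fold higher (edgeR adjusted p = 0.000300), on counts that were fractional in all 6 libraries. Bdh2, a dehydrogenase linked to a mammalian siderophore, averaged 0.830 ± 0.18 CPM at day 7 and 4.07 ± 0.669 CPM at day 0, 5.04-fold lower (edgeR adjusted p = 0.000283). The other lower genes were the ferritin heavy chain Fth1, 1.52-fold, and the metal importers Slc39a14, 1.65-fold, and Slc11a2, 1.24-fold. These 3 calls had edgeR adjusted p of 0.0361, 0.0356 and 0.0371 and were each lost when any 1 day 0 library was left out, which left 1 gene of the list lower. Those fits called 2999 to 3090 genes lower among 12522 to 12728 tested. Fth1 also lost its call without the first or the second day 7 column and Slc11a2 without the second. This left 2 genes of the list lower in the fit without the second, where 3508 of 12556 tested genes were. In the fit without the third column 8 were lower, where 31.8% of all tested genes were.

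The genes most like each member were sought among 6432 others by Pearson's r of log2(CPM + 1) over the 6 libraries, which fall into the 2 days. Thus r mostly follows the difference between days together with the order within day 7, and for Steap4 and Serpina3n mostly that order. An r near 1 does not mean changes of like size. Lcn2 was closest to Tmem176b (r = 0.999) and Irf2 (0.997), and Saa3 to Tmem176a and Tmem176b (0.999 each). Irf2 averaged 26.1 ± 3.38 CPM at day 7 and 32.7 ± 0.833 CPM at day 0, a far smaller change than that of Lcn2. Tmem176b, a membrane protein gene, had 24.4, 16.4 and 115 CPM in the 3 day 7 columns, against 227, 232 and 259 CPM at day 0, with a log2 fold change of -2.23 ± 0.66 (edgeR adjusted p = 0.0201). It was -3.54 without the third column (edgeR adjusted p = 5.37e-06), and the call was lost without the first column (-1.88, edgeR adjusted p = 0.0545) or without day 0 replicate 3 (-2.17, edgeR adjusted p = 0.0570). Hp was closest to 2410131K14Rik (0.998) and BC005537 (0.997), Cp to Cacng7 (0.995) and Rnf144a (0.993), and Orm1 to Bcap31 (0.999) and Kank1 (0.998). BC005537 averaged 116 ± 7.30 CPM at day 7 and 101 ± 0.382 CPM at day 0, a far smaller change than that of Hp. Steap4 was closest to Zfp280c (0.986) and Angpt1 (0.985), and Serpina3n to Zeb2 (0.992) and Chid1 (0.989). Zeb2, which encodes a transcription factor, had 160, 141 and 187 CPM at day 7 and 155, 157 and 155 CPM at day 0. Among the members Lcn2 and Saa3 were most alike (r = 0.996), followed by Lcn2 and Cp (0.978).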

How the data were processed

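Total RNA was sequenced with an Illumina stranded kit, per the labels' protocols. Per the submitters' processing notes, which give no roles, Salmon 1.9.0, STAR 2.7.10a, Trim Galore 0.6.7 and build GRCm38 were used. The values the authors deposited are estimated counts per gene, a unit read from the values, which are mostly whole and not scaled to a common total; they were rounded here. A side block of 10 value columns was not used. Day 7 columns were matched to the group only.

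The 7 genes, the lists of related genes and the rules for naming genes were chosen with earlier results of these data known. Named list genes are the 3 most changed called genes in the more frequent direction and 2 such genes in the other, or all called in a direction when 5 or fewer. Of marker lists they are the first 3 genes, those at or near 0 given by sums. A gene that this rule would name is not reported here. Tmem176b, Irf2, BC005537 and Zeb2 among the like genes whose levels are given, C3, Lbp, Chil1 and C4b, and genes named as listed at 0, untested or not passing were picked after their values were seen. The like genes were sought among tested genes that averaged 10 CPM or more and had no fractional counts.

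Low genes were removed by filterByExpr (minimum count 10, minimum total 15), and counts were scaled by TMM and tested with edgeR 4.0.16 (quasi-likelihood, day as the only factor), with Benjamini-Hochberg adjustment over 12354 genes and a threshold of 0.05. A fractional count differs from a whole number by more than 0.01. The biological coefficient of variation was 0.186. With 7655822 to 16987076 counts per library, genes under about 1 CPM rest on few counts; the floor of 3 counts covers counting error only. GENCODE M21 gave positions and exon lengths, and 40083 row names were found in it once. Alternatives were total-count, RLE or upper-quartile scaling, a filter of 10 CPM in 3 libraries or none, DESeq2 1.42.0, limma 3.58.1 (voom), rounding down, library sizes without the 10 most abundant rows, and leaving out each library. The code was tested on simulated data.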

Additional observations from a re-analysis of the deposited data

How the results depend on the processing

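No paired analysis was possible because all 3 day 7 columns carry replicate number 1 in the header. Hp and Orm1 kept their direction and call under all 15 alternatives, with log2 fold changes of 3.34 to 5.20 for Hp and 4.68 to 5.38 for Orm1 when each library was left out. Lcn2 lost its call with the filter of 10 CPM (-3.21, edgeR adjusted p = 0.050) and ranged from -6.13 to -2.64 over the libraries left out. Its adjusted p ran from 1.59e-05 to 0.103 over all alternatives, that of Saa3 from 4.05e-06 to 0.101 and that of Cp from 0.000977 to 0.171. Saa3 lost its call in DESeq2 (-4.31, adjusted p = 0.0929) and ranged from -10.16 to -3.76. Cp, which did not pass, passed in limma-voom (-2.41, adjusted p = 0.0250), with no filter (-1.76, edgeR adjusted p = 0.0153) and with total-count scaling (-1.90, edgeR adjusted p = 0.0262), and ranged from -2.97 to -1.23. Steap4 ranged from -1.57 to 0.14, turning its direction without the second day 7 column. Serpina3n turned its direction in limma-voom (-0.068) and ranged from -0.59, without the third column, to 1.87; the filter of 10 CPM removed it. The count of members called lower was 1 in DESeq2, where 3534 of 12354 tested genes were lower. It was also 1 with the filter of 10 CPM, where 2570 of 8041 were. Without the third day 7 column it was 3, where 4044 of 12712 tested genes were lower. When any other library was left out it was 0, where 2999 to 3508 of 12491 to 12728 tested genes were lower. The count called higher was 2 to 3 over the libraries left out, where 3118 to 4185 of 12491 to 12728 tested genes were higher. The causes were not tested. Total-count scaling set the median of the log2 fold changes over all tested genes at -0.21 in place of 0.022, with 2355 genes higher and 4025 lower in place of 3802 and 3611, and the direction of all 7 members held under it. Depth limits genes such as Il6, with 6 counts at day 7.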

Other observations

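Of the acute-phase genes beyond the 7, C3, Lbp, Chil1 and C4b did not pass the test between the days but were each highest at day 7 in the third column, and they were picked after their values were seen. C3, the central complement component, had 2733, 2968 and 7419 CPM in the 3 day 7 columns, against 3416, 3712 and 3094 CPM at day 0. Lbp, the lipopolysaccharide-binding protein, had 1.08, 1.83 and 28.0 CPM in the day 7 columns, against 32.5, 32 and 31.7 CPM at day 0. Chil1, a chitinase-like secreted protein, had 1.19, 0.814 and 18.9 CPM in the day 7 columns, against 29.5, 29.0 and 34.7 CPM at day 0. C4b had 11.4, 6.82 and 89.2 CPM in the day 7 columns, against 16.7, 16.3 and 18.1 CPM at day 0, on counts that were fractional in all 6 libraries. The log2 fold change was 0.36 for C3 (edgeR adjusted p = 0.454), -1.77 for Lbp (edgeR adjusted p = 0.152), -2.31 for Chil1 (edgeR adjusted p = 0.0630) and 1.04 for C4b (edgeR adjusted p = 0.315). Without the third column it was -0.26 for C3 (edgeR adjusted p = 0.189), -4.54 for Lbp (edgeR adjusted p = 2.58e-06), -4.88 for Chil1 (edgeR adjusted p = 2.09e-06) and -0.86 for C4b (edgeR adjusted p = 0.00862), so that Lbp, Chil1 and C4b then passed as lower. Without the first column that of Lbp was -1.16.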
